A study of Oryza sativa with 2 samples.

Results

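The regions described here were the 324 peaks of OsbHLH002 that lay at DNA transposon genes, out of 12487 peaks in the list. They were chosen by the gene descriptions alone, as peaks with at least 1 gene described as a transposon but not as a retrotransposon, and each peak was counted once. They carried 327 such genes of the 14709 genes listed. OsbHLH002, also called OsICE1, is a rice transcription factor of the basic helix-loop-helix family, known for its part in the response to cold, and the comparison of IP with input asks where on the genome it sits. The IP was 1 library, precipitated with an antibody against FLAG from transgenic rice plants labelled Osbhlh002-1 gOsbHLH002-3FLAG, and it was set against 1 input library from plants with the same label. Both libraries thus carried the tagged gOsbHLH002-3FLAG transgene and the Osbhlh002-1 background, and no untagged plants were analysed here. The sources used here do not give the age, the tissue or the number of plants. With 1 library on each side no difference below could be set against a spread between plants, so all comparisons are descriptions of this list and carry no test.

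DNA transposons are mobile elements that move as DNA, by a transposase that cuts at the inverted repeats at the element's ends. Retrotransposons, the other large class, move through an RNA copy. In rice, CACTA (En/Spm), Mutator, Ac/Ds (hAT), Pong (of the PIF/Harbinger superfamily) and Mariner elements are families of the first kind. Pong is known as a relative of Ping that can supply the transposase for the small element mPing. Plants hold most such elements silent through DNA methylation and small RNAs.

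By the type named in the description, 192 of the peaks were at unclassified transposon genes and 106 at CACTA En/Spm genes. Pong had 12 peaks, Mutator 8, Ac/Ds 5 and Mariner 3. These add up to more than 324 because 2 peaks lay on genes of 2 types. The peaks were compared with 594 peaks at a retrotransposon gene and no DNA transposon gene, and with 11569 peaks at neither class. A gene of each transposon class was present at 13 of the 324. The list holds a peak only where it overlaps the 2000 bp to either side of a gene's start, and each gene carries 1 peak, so it does not give the share of all rice transposons that were bound.

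As a class, the DNA transposon peaks were about as strong as the rest of the list. Fold here is the authors' enrichment of the IP over its local background, read at the summit, the highest point of a peak. The median fold was 3.25 at DNA transposon genes (quartiles 2.58 and 4.23, n = 324), 3.23 at retrotransposon genes (2.62 and 4.29) and 3.13 at genes of neither class (2.55 and 4.07). The 95% interval of the DNA transposon median, from the order of the peaks, was 3.07 to 3.45 and held the other medians. In fragments recovered from the authors' fold and p, the median summit held 20 IP fragments in each of the 3 classes. The recovery reads the fold as a ratio with the same constant added to fragments and to background. The fold is therefore lower than the plain ratio of the fragments and background given here. The local background was 4.90 fragments at DNA transposon genes, 4.78 at retrotransposon genes and 5.19 at neither class. The typical peak of each class thus rested on few fragments. A summit of 16 or fewer was found for 94 of the 324 DNA transposon peaks. It was found for 185 of the 594 retrotransposon peaks and 3640 of the 11569 at neither class.

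A deposited q above 0.05 was found for 29 DNA transposon peaks (8.95%), for 54 retrotransposon peaks (9.09%) and for 1154 peaks at neither class (9.97%). A background at the genome-wide level of 4.44 fragments was found for 114 DNA transposon peaks (35.2%), for 37.4% of retrotransposon peaks and for 25.4% of peaks at neither class. Within that set, the median fold was 3.68 at DNA transposon genes and 3.31 at neither class. A fold of 5 or more was reached by 24.6% of its DNA transposon peaks and by 16.2% of its peaks at neither class. The set held 5 of the 7 DNA transposon peaks with a fold of 12 or more. The folds of retrotransposon peaks at this background were not taken, so the difference cannot be called particular to DNA transposon genes.

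A fold of 5 or more was reached by 55 DNA transposon peaks, or 17.0% (95% exact binomial interval 13.1 to 21.5%), by 14.3% of retrotransposon peaks and by 13.8% of peaks at neither class. Over the whole list the share was 13.9%, which lies within that interval. Binomial intervals here cover counting error only and treat peaks as separate units. At the top of the range, 7 DNA transposon peaks (2.16%, interval 0.873 to 4.40%) had a fold of 12 or more, beside 0.865% of the whole list. The share was 1.85% at retrotransposon genes and 0.778% at neither class. The cut of 12 was chosen with earlier results of these data known and falls in a gap between member folds of 9.93 and 16.0. Its interval is therefore a description only. Among peaks at a q of 0.001 or less, a fold of 5 or more was found for 26.3% of DNA transposon peaks and 22.5% of peaks at neither class.

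**Figure D1:**
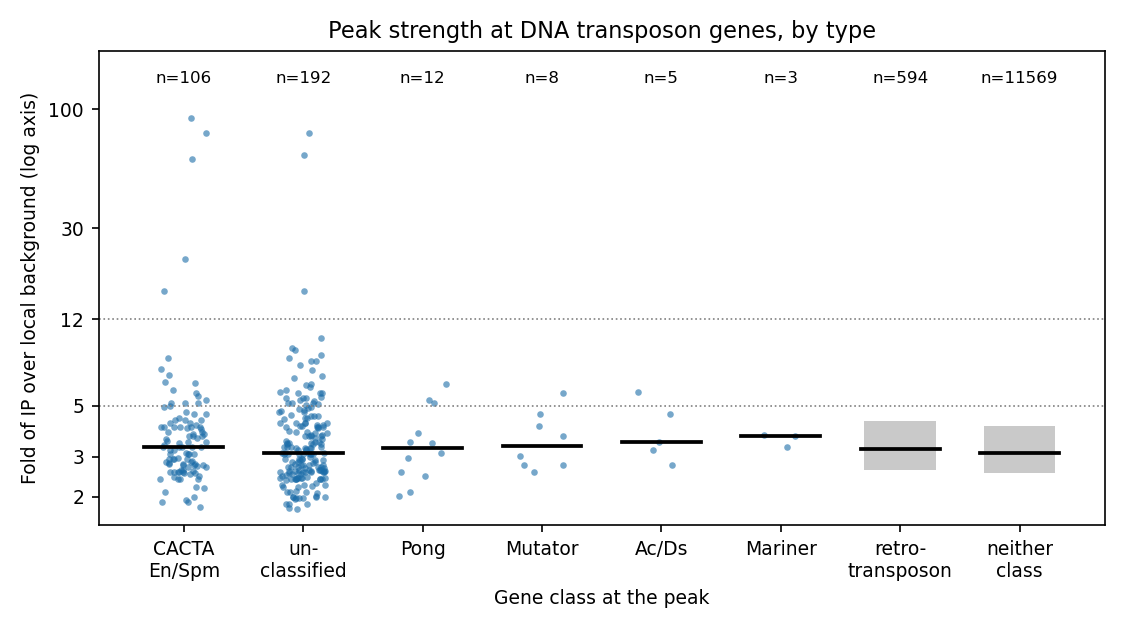
Fold of IP over local background (log axis) for every peak at a DNA transposon gene, by the type named in the description, with 1 point per peak and a black line at the median. Grey boxes give the quartiles of peaks at retrotransposon genes and at neither class, and dotted lines mark folds of 5 and 12. The medians of the 6 types lie between 3.13 and 3.71, and points above 12 occur at CACTA En/Spm and unclassified genes.

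Among the types, the medians were close and the smaller types rested on few peaks. The median fold was 3.31 for CACTA En/Spm peaks, 3.13 for unclassified, 3.28 for Pong, 3.35 for Mutator, 3.46 for Ac/Ds and 3.71 for Mariner. The intervals of the median were 2.97 to 3.68 for CACTA En/Spm and 2.91 to 3.41 for unclassified peaks, so these largest types overlapped. For Pong, the interval was 2.48 to 5.17 and for Mutator 2.57 to 5.70. A fold of 5 or more was found at 18 CACTA En/Spm peaks (17.0%), 33 unclassified peaks (17.2%), 3 Pong peaks, 1 Mutator peak, 1 Ac/Ds peak and no Mariner peak.

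The strongest peak was at a CACTA En/Spm gene, a type whose complete copies encode a transposase (TnpD) and a regulatory protein (TnpA) in the maize member Spm. LOC_Os12g16780 had 494 IP fragments over a background of 4.44, a fold of 91.0 and rank 13 of all 12487 peaks. Its peak ran over 4410 bp of chromosome 12, from 9610501 to 9614910. The summit lay 3146 bp upstream of its start, and the nearer listed start was that of LOC_Os12g16770, an expressed protein gene with the summit 671 bp downstream of that start. A peak on chromosome 5, from 10963713 to 10967763, had 428 IP fragments over 4.44, a fold of 78.9 and rank 18. It was listed on 2 transposon genes on the same strand, the short unclassified gene LOC_Os05g18890 (378 bp, summit 1050 bp upstream) and the CACTA En/Spm gene LOC_Os05g18900 (6546 bp, summit 2223 bp upstream).

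LOC_Os09g12160, a CACTA En/Spm gene of 786 bp, carried the widest peak of the class at 8243 bp (chromosome 9, 6873007 to 6881249). It had 328 IP fragments over 4.44 and a fold of 60.5, with the summit 6218 bp past the gene start and thus well beyond the 3′ end. LOC_Os08g25350, an unclassified transposon gene, had 355 fragments over 4.65 and a fold of 63.0, on a peak of 6360 bp whose summit was also past the 3′ end. In neither of these did the summit fall in the transposon gene. The peak of LOC_Os08g25350 nonetheless covered that whole gene of 3322 bp, with the summit 3812 bp past its start. The peak of LOC_Os09g12160 did not reach its gene.

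The remaining 3 peaks of a fold of 12 or more were smaller. LOC_Os09g12870 (CACTA En/Spm) had 125 fragments over 4.72 and a fold of 22.0, with the summit 2498 bp upstream. LOC_Os12g16580 (CACTA En/Spm) and LOC_Os08g30040 (unclassified) each had 86 fragments over 4.44 and a fold of 16.0. Of the 7 peaks, only that of LOC_Os08g30040 had its summit within 250 bp of the transposon start, 72 bp upstream of it.

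These 7 peaks stood apart from the other members in fold, since the next one, at the unclassified gene LOC_Os12g28580, had a fold of 9.93 from 53 fragments over 4.44. They held 1902 of the 8890 IP fragments summed over the 324 summits, or 21.4%. Their median background was 4.44 fragments, the genome-wide level. They lay on chromosomes 5, 8, 9 and 12, in stretches with few other peaks. There, 11 to 21 other listed peaks had their summit within 500 kb of theirs, with a median of 16. For the other 317 members the median was 39. Peaks of a fold of 12 or more at retrotransposon genes had a median of 20 such neighbours (n = 11), and those at neither class had 47 (n = 90).

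**Figure D2:**
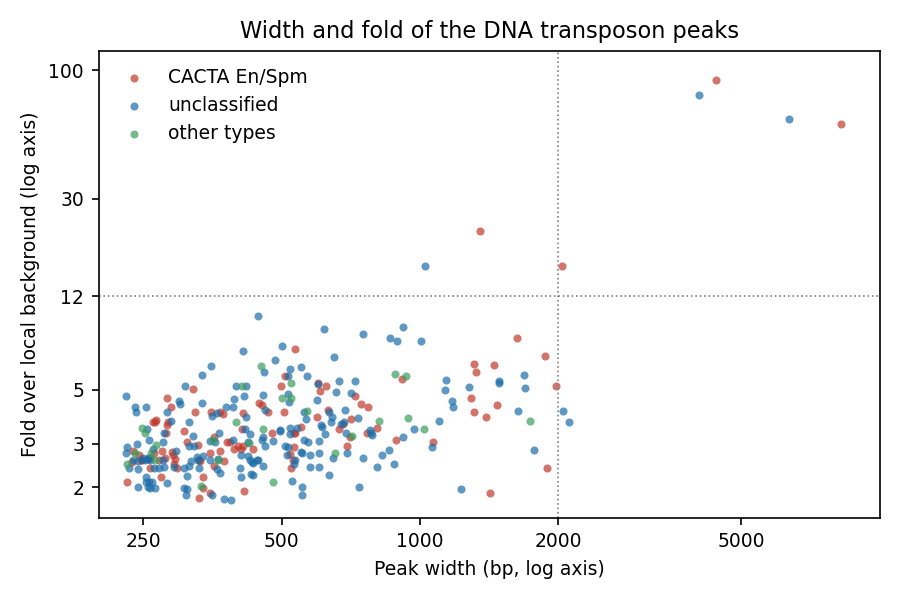
Peak width (bp, log axis) against fold over local background (log axis) for the 324 DNA transposon peaks, 1 point each, coloured by the type of the transposon gene nearest to the summit. Dotted lines mark 2000 bp and a fold of 12. Of the 7 peaks above a fold of 12, 5 are at least 2000 bp wide, and 2 others of that width have lower folds.

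Width otherwise followed the rest of the list. The median was 445 bp at DNA transposon genes, 433 bp at retrotransposon genes and 446 bp at neither class. A width of 2000 bp or more was found for 7 DNA transposon peaks (2.16%), against 1.91% of the whole list. Among members under a fold of 12 it was 0.631% (2 of 317), and among peaks at neither class under that fold it was 1.39%. Most members were thus narrow peaks, with an upper quartile of 654.5 bp. The strong peak of the unclassified gene LOC_Os01g51130, with 48 fragments over 4.44 and a fold of 9.01, was wider than that, at 918 bp.

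The other strong members below a fold of 12 named here were mostly unclassified, which was also the largest type, with 192 of the 324 peaks. LOC_Os01g54270 had 47 fragments over 4.44 and a fold of 8.82, with the summit 415 bp upstream. LOC_Os03g02140 had 50 fragments over 5.09 and a fold of 8.38, but its summit was nearer to LOC_Os03g02150, described as an adapitin gene on the opposite strand, at 320 bp against 1048 bp. LOC_Os04g56380 had 43 fragments over 4.44 and a fold of 8.09. The CACTA En/Spm gene LOC_Os01g49870 had 44 fragments over 4.54 and a fold of 8.12, with the summit 2002 bp upstream.

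At the other end, LOC_Os02g35120 (unclassified) had 15 fragments over 8.02 and a fold of 1.77, the lowest of the class. Its summit lay 139 bp downstream of the start of a neighbour, the AIG1 gene LOC_Os02g35130, and 1900 bp upstream of the transposon gene. LOC_Os06g48710 (unclassified) had 16 fragments over 8.50 and a fold of 1.79, and LOC_Os07g28590 (CACTA En/Spm) 17 over 8.97 and a fold of 1.81. The highest background of the class, 12.7 fragments, was at LOC_Os03g52310 (unclassified), whose summit held 60 fragments for a fold of 4.44. Backgrounds over 2 times the genome-wide 4.44 were found for 17 members (5.25%) and for 4.93% of the whole list.

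The Pong genes, which encode transposases of the Harbinger kind, had their strongest peak at LOC_Os02g39130. It held 33 fragments over 4.44, a fold of 6.25, with the summit 1191 bp upstream (chromosome 2, 23636655 to 23637105). LOC_Os01g08500 had 28 over 4.44 and a fold of 5.33, 1162 bp upstream. LOC_Os01g27580 had 31 over 5.19 and a fold of 5.17, 388 bp upstream. The next Pong gene, LOC_Os01g27590, singled out after its value was seen, carried a peak 1.53 kb farther along with 13 fragments over 4.65 and a fold of 2.48. The weakest, LOC_Os02g45400, had 10 fragments over 4.44 and a fold of 2.02, the fewest fragments of any member. Of the 12 Pong summits, 10 were upstream of the gene start, and 2 of the 12 peaks had a q above 0.05.

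Among the 8 peaks at Mutator genes, LOC_Os09g35770 led with 30 fragments over 4.44 and a fold of 5.70, 769 bp upstream of its start (chromosome 9, 20579555 to 20580485). LOC_Os01g45630 had 24 over 4.44 and a fold of 4.60. Its summit was 423 bp upstream of the Mutator gene and 109 bp downstream of the start of LOC_Os01g45640, described as a tat pathway signal sequence gene. LOC_Os10g31350 had 30 over 6.61 and a fold of 4.08. The other 5 had folds of 2.57 to 3.68, from 13 to 20 fragments. All 8 had a q of 0.05 or less, and 7 of their summits were upstream.

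The Ac/Ds peaks, at genes of the hAT kind first known from maize, were led by LOC_Os02g41790 with 32 fragments over 4.73 and a fold of 5.76. That summit lay 2416 bp past the start of a gene of 1196 bp, beyond its 3′ end. LOC_Os07g47610 had 24 over 4.44 and a fold of 4.60, with the summit between it and the universal stress protein gene LOC_Os07g47620, which was the nearer at 137 bp. LOC_Os05g34260 had 18 over 4.49 and a fold of 3.46, 14 bp upstream of its start. Thus 1 of these 3 summits sat at the start of the transposon gene itself. Over all 5 Ac/Ds peaks, 2 summits were within 250 bp of it, the other being 60 bp inside LOC_Os10g29170.

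The 3 Mariner peaks were alike in position, all more than 1 kb upstream of the gene. LOC_Os04g46210 had 29 fragments over 7.08 and a fold of 3.71 on a peak of 1735 bp that also reached the start window of LOC_Os04g46220, an ethylene-responsive transcription factor gene. LOC_Os12g16590 had 36 over 8.97 and a fold of 3.71, and LOC_Os12g12240 had 18 over 4.72 and a fold of 3.32. LOC_Os12g16590 lay beside the CACTA En/Spm gene LOC_Os12g16580, with their summits 4.27 kb apart.

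The summits of the DNA transposon peaks lay mostly away from the gene start. In all, 54 of 324 summits, 16.7% (interval 12.8 to 21.2%), lay within 250 bp of the start of the transposon gene, and 11.3% of retrotransposon summits lay that near to their gene. At genes of neither class it was 42.4%, and over the whole list, taking the nearest listed start, 41.2%. The median distance from summit to start was 1209 bp at DNA transposon genes, 1336 bp at retrotransposon genes and 361 bp at neither class. Upstream of the start lay 255 DNA transposon summits, or 78.7% (73.8 to 83.0%), 72.4% of retrotransposon summits and 60.1% of the others, with 60.7% over the whole list.

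The bodies of the transposon genes held few summits. Inside the gene lay 38 DNA transposon summits (11.7%), 17.8% of retrotransposon summits and 32.0% of those at neither class. Past the 3′ end lay 9.57% of DNA transposon summits, 9.76% of retrotransposon summits and 7.92% of those at neither class. Any overlap of peak and gene body was seen for 80 DNA transposon peaks (24.7%), for 25.6% of retrotransposon peaks and for 60.6% of peaks at neither class. This overlap is itself set by where a peak lies, so values on either side of it are a description of position and do not adjust for it. With overlap, 47.5% of DNA transposon summits and 44.2% of those at neither class were upstream. Without it, 88.9% of DNA transposon summits and 84.6% of those at neither class were. Within 250 bp of the start lay 60.0% of overlapping DNA transposon summits and 63.6% of those at neither class. Without overlap it was 2.46% of DNA transposon summits and 9.92% of those at neither class.

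The transposon genes were not the shorter ones. Their median length was 3306 bp for the DNA transposon genes, against 2907 bp for retrotransposon genes and 2729 bp for the genes of neither class. Many transposons have near-identical copies, and the sources used here do not give how reads that match several places were handled. The part of such reads in these positions was not tested.

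**Figure D3:**
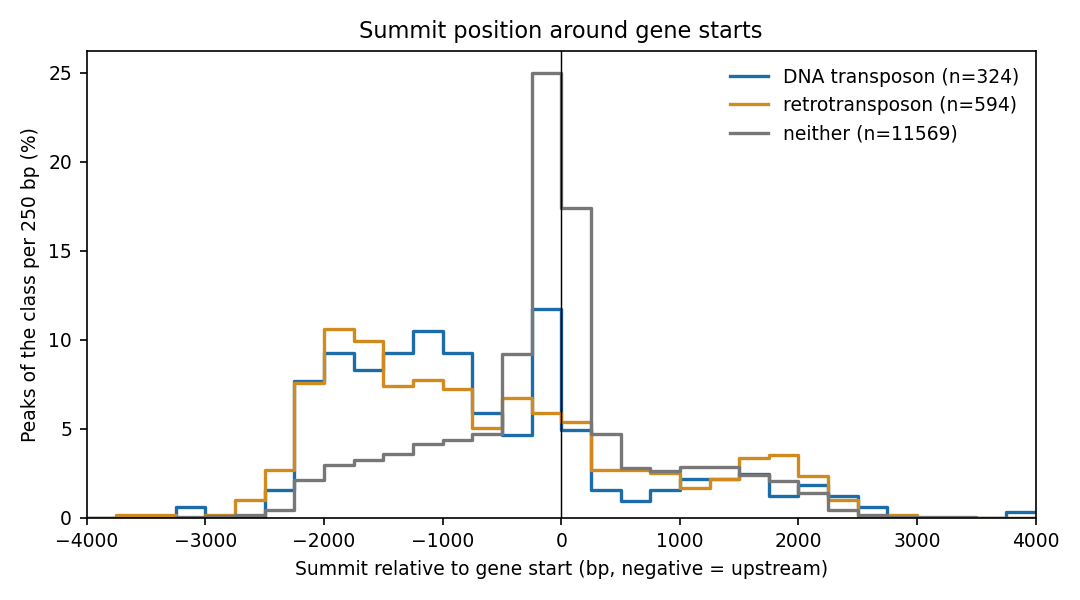
Share of the peaks of each class (%) in steps of 250 bp around the gene start, with upstream positions negative; 1 member with its summit 6218 bp past the start and some peaks of the neither class lie outside the axis. Distances are to the transposon gene for both transposon classes and to the nearest listed start for neither. The DNA transposon line shows 11.7% in the step just upstream of the start, against 25.0% for neither class, and stays between 5.9 and 10.5% in each step from 2250 to 500 bp upstream.

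The upstream summits were spread over the whole window. Of all DNA transposon summits, 11.7% lay up to 250 bp upstream, 4.63% from 251 to 500 bp, 15.1% from 501 to 1000 bp, 37.3% from 1001 to 2000 bp and 9.88% farther. At neither class the nearest of these bands held 25.0% and the band from 1001 to 2000 bp 13.9%. A summit over 2000 bp upstream belonged to a peak wide or long enough to reach the window, and the 32 such members had a median fold of 4.07. The 38 members up to 250 bp upstream had 3.53, and the 121 from 1001 to 2000 bp had 3.08.

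The upstream share of the members was similar at few and at many IP fragments. It was 76.6% (interval 66.7 to 84.7%) among 94 members of 10 to 16 fragments, 79.5% at 17 to 20, 79.2% at 21 to 26 and 80.0% (69.9 to 87.9%) at 27 or more. For retrotransposon peaks the values were 67.6, 71.3, 75.0 and 77.2%. For peaks at neither class they were 47.1, 56.4, 64.8 and 76.5%. The upstream shares of DNA transposon peaks and of those at neither class were thus apart at few fragments and close at 27 or more. The share of summits within 250 bp of the start was apart in each of these ranges. It was 11.7% at 10 to 16 fragments and 15.3% at 27 or more for DNA transposon peaks, and 37.3% and 43.5% for peaks at neither class. For the upstream share, on peaks listed on 1 gene, the members gave 75.9, 73.5, 76.3 and 76.5%, and the others 47.3, 56.9, 64.0 and 76.8%.

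**Figure D4:**
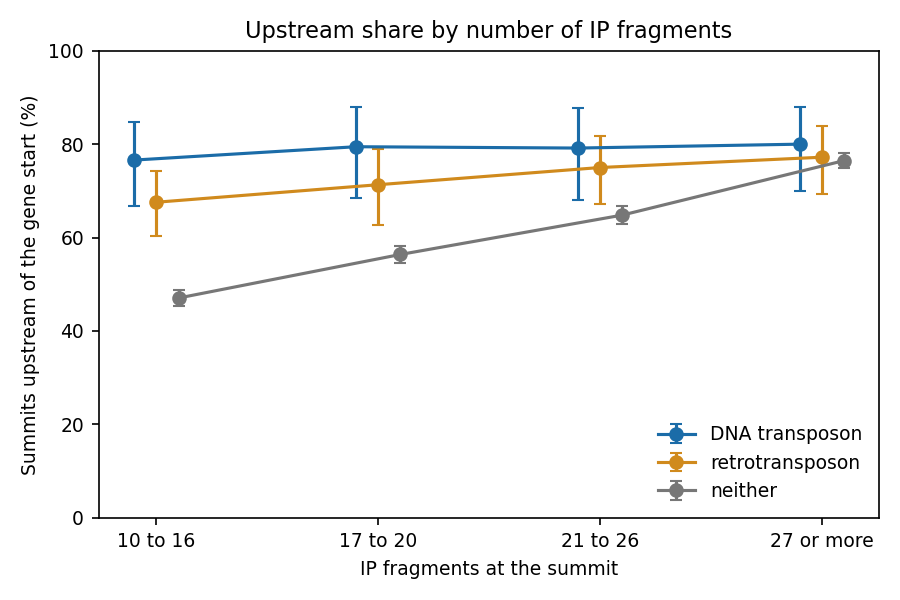
Share of summits upstream of the gene start (%) by IP fragments counted at each summit, for DNA transposon, retrotransposon and neither-class peaks. Bars are 95% exact binomial intervals for counting error. DNA transposon values stay between 76.6 and 80.0%, and those at neither class go from 47.1% to 76.5%.

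Many of the members were shared with another gene. A second listed gene was present at 132 of the 324 peaks (40.7%, interval 35.3 to 46.3%), at 34.7% of retrotransposon peaks and at 15.5% of peaks at neither class, with 17.1% over the whole list. Since 1 transposon gene is enough to place a peak in a transposon class, and all of its genes must be other ones for neither class, peaks on several genes enter the transposon classes more easily, and part of this difference is set by the grouping. In 117 of the 132 the nearest other gene was of neither transposon class, in 12 it was a retrotransposon gene and in 3 another DNA transposon gene. The summit was nearer to the start of the other gene in 95 of the 132. The median distance was 1328 bp to the DNA transposon start and 456 bp to the other start. Within 250 bp lay 15 summits by the transposon start and 50 by the other start.

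In 72 of the shared peaks the genes were on opposite strands and the summit lay between their starts. Here the median distance was 1281 bp to the transposon start and 512 bp to the other one, and the other start was the nearer in 52. A fold of 5 or more was found for 13 of these 72. It was found for 24 of the 132 shared members (18.2%), 17.0% of all members and 13.9% of the whole list. Neighbours from the 13 are picked out here after their values were seen, all with a start nearer to the summit than the transposon start. The other way went LOC_Os01g67810 (fold 7.54), 43 bp from the summit against 718 bp, and LOC_Os01g09220 (fold 5.145), 130 bp against 1601 bp. Each of these shared its peak with a retrotransposon gene. The unclassified gene LOC_Os02g56390 shared its peak (40 fragments, fold 7.17) with the receptor-like cytoplasmic kinase gene OsWAK21, 252 bp from the summit. LOC_Os02g32170 (40 fragments, fold 6.62) shared with a gene for a copine, a calcium-dependent membrane-binding protein, 53 bp from the summit. LOC_Os01g38540 (35 fragments, fold 5.71) shared with LOC_Os01g38530, described as an ELF3 gene, a component of the plant circadian clock, 169 bp from the summit. LOC_Os01g64160 (CACTA En/Spm, 47 fragments, fold 6.31) shared with a glycosyl hydrolase family 17 gene, 371 bp from the summit.

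**Figure D5:**
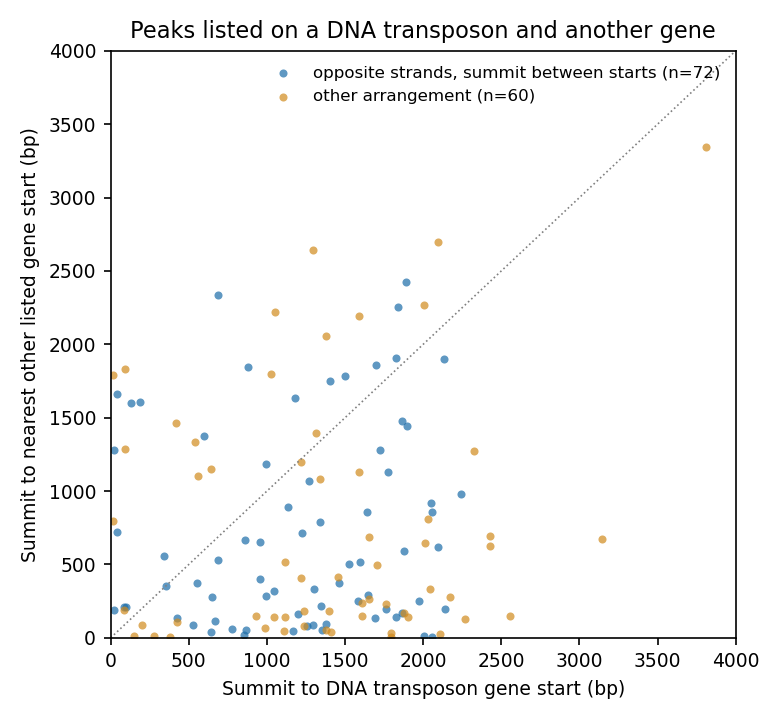
Distance (bp) from the summit to the DNA transposon start against the distance to the nearest other listed start, for the 132 peaks listed on both, 1 point each. Blue points are the 72 peaks between starts on opposite strands, orange points the other arrangements, and the dotted line marks equal distances. Below the line, nearer to the other gene, lie 95 points.

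The position differed from neither class in the same direction without the shared peaks, with somewhat more summits near the start. On the 192 members listed on 1 gene, 20.3% of summits were within 250 bp of the start and 75.5% upstream, against 40.3% and 60.2% of the 9775 single-gene peaks at neither class. On the 229 members whose nearest listed start was that of a DNA transposon gene, 22.7% were within 250 bp and 76.4% upstream. The share within 250 bp was above the interval of all members, 12.8 to 21.2%. The median fold was 3.25 on shared members and 3.26 on members with 1 gene.

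The descriptions carry the word expressed for most genes, a tag that the rule did not use. It stood on the transposon gene at 287 members (88.6%), on 83.0% of the genes at retrotransposon peaks and on 96.8% of those at neither class. Without it, the median fold was 3.59 (37 members), and with it 3.23 (287 members). Folds of 12 or more were found for 3 of the 37 (8.11%) and 4 of the 287 (1.39%), beside 0.865% of the whole list. The 3 include the chromosome 5 peak, counted by the untagged LOC_Os05g18890 because its start was nearer. That peak was also listed on the tagged LOC_Os05g18900, so the split depends on this choice. Within 250 bp of the start was 1 of the 37 untagged summits, and 53 of 287 for the tagged ones. Past the 3′ end lay 27.0% of untagged and 7.32% of tagged summits. The untagged genes were shorter, with a median of 1279 bp against 3527 bp. The lengths and the tag thus moved together with the position, and the part of each was not tested.

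Along the genome, DNA transposon peaks were spread over all 12 chromosomes. They made up between 1.63% of the listed peaks of chromosome 3 (29 peaks, interval 1.10 to 2.34%) and 3.90% on chromosome 11 (22 peaks, 2.46 to 5.85%). Chromosome 6 was also low, at 1.69%, and chromosome 12 high, at 3.80%, while chromosome 1 had the most peaks, 49. The median fold by chromosome was between 2.76 on chromosome 7 and 3.68 on chromosomes 5 and 12, each from 16 to 49 peaks. At neither class the medians of the 12 chromosomes ran from 2.97 on chromosome 11 to 3.22 on chromosome 4. Chromosome 11, the lowest at neither class, had a member median of 2.80. It had no member of a fold of 5 or more among its 22, beside 17.0% of all members and 13.9% of the whole list. The share of all chromosome 11 peaks at that fold was not taken, so this count is not a result about the members.

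The members tended to lie where the list was thin. A median of 38 other listed peaks (quartiles 20 and 58) had their summit within 500 kb of a DNA transposon summit, 32 of a retrotransposon summit (18 and 53) and 49 of a summit at neither class (30 and 62). By type it was 28 for CACTA En/Spm and 44 for unclassified peaks. Of the members, 243 had no other member's summit within 100 kb, and the other 81 formed 39 runs with gaps of at most 100 kb. The longest runs had 3 members each, as at LOC_Os02g30370, LOC_Os02g30400 and LOC_Os02g30530 on chromosome 2, with summits over 77.0 kb and a highest fold of 3.68.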

How the data were processed

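Per the labels' protocols, chromatin was fixed with 1% formaldehyde for 15 min and sonicated to 300 to 500 bp. The submitters' processing notes name MACS2 2.2.7.1, Picard, SAMtools and the aligner Bowtie2 2.4.2. The sources used here do not give the build, the annotation release, the threshold for calling or the library totals. Coordinates are as deposited, counted from 1. Peaks of 1 IP library against 1 input were deposited with a fold (a linear ratio), −log10 p and q values, and a score, per the file headers. To solve for fragments, the fold was read as IP fragments plus 1 over background plus 1. The deposited score matched 10 times the −log10 p with decimals dropped and was not used further.

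From these, the whole-number IP fragments and the background at each summit were solved with Python 3.11.15 and SciPy 1.17.1 (Poisson tail, tolerance 0.0001 of the −log10 p plus 0.0002), for all 324 members. The step was checked on simulated data made with the same formula for the fold, so the check cannot speak to that formula. The simulated backgrounds did not reach the highest ones of the members. Every listed summit with a solution holds 10 or more IP fragments, which limits the precision of single peaks.

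Peaks were grouped by description. Where several DNA transposon genes shared a peak, the one with the nearest start was used. Medians, quartiles and shares were compared without tests, and 8 alternatives were tried. Named genes were the 3 strongest peaks of each type (all of Mariner), the next 8 by fold, the 3 weakest, and the one of highest background, 30 genes in all. The members, lists and thresholds were chosen with earlier results of these data known. None of the 327 gene identifiers was found in the RefSeq gene table (39387 entries), and no sequences are shown.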

Additional observations from a re-analysis of the deposited data

How the results depend on the processing

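Under 7 alternatives in the same unit, 73 of 88 recomputed values stayed within the interval of the reported one and 15 moved. For Mutator, Ac/Ds and Mariner that interval was the full range of their folds. The alternatives were subsets of the same peaks, so the medians of these types could not leave it. Their values count among the 73 but say nothing on how stable the results were. No difference changed sign. At a q of 0.001 or less (209 members) the median fold was 3.97 for all types, 4.03 for CACTA En/Spm and 4.03 for unclassified peaks, and 26.3% had a fold of 5 or more. Weak peaks are left out there. Among the 80 members overlapping the gene body, 5.0% had a fold of 12 or more, 60.0% of summits were within 250 bp of the start and 47.5% upstream. With the transposon start nearest (229 members), 22.7% were within 250 bp. At the genome-wide background (114 members) the median fold was 3.68, the difference from other peaks 0.37, the unclassified median 3.68, the share at a fold of 5 or more 24.6%, within 250 bp 12.3% and upstream 84.2%. Without the 7 peaks of a fold of 12 or more, 0.631% were 2000 bp or wider. An 8th alternative gave fragments in place of fold, another unit that cannot be set against the intervals of the fold, with medians of 20 for all types, 20 for CACTA En/Spm, 19.5 for Mutator, 19 for Pong, 22 for Ac/Ds, 29 for Mariner and 20 for unclassified peaks. The cause of the other moves was not tested. No paired analysis was possible because there was 1 library of each kind. Depth limits the weakest peaks, of which the lowest holds 10 IP fragments.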

Other observations

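Genes related to transposons but outside the rule also had peaks. The list held 10 genes described by a transposase, hAT, FAR1 or MuDR domain, with a median fold of 3.96 (2.45 to 5.55), and 6 of their summits were upstream of the start, beside a median of 3.13 and 60.7% upstream over the whole list. The FAR1 family gene LOC_Os03g15040 was the strongest, with 31 fragments over 4.76 and a fold of 5.55, 316 bp upstream of its start. FAR1 and FHY3 are transcription factors of Arabidopsis phytochrome signalling related to Mutator transposases. Of 6 genes described by a hAT dimerisation domain, LOC_Os01g36064 had the highest fold, 4.50, and LOC_Os06g49050 the lowest, 2.51.

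Of genes described as SNF2, Dicer, RNA-dependent RNA polymerase or argonaute, families with members known for remodelling chromatin or for silencing through small RNAs, 14 were listed. Their median fold was 3.48 (2.10 to 5.35), and 12 of the summits lay upstream, against the same 3.13 and 60.7% over the whole list. They were 9 SNF2 genes, 2 Dicer genes, 2 RNA-dependent RNA polymerase genes and 1 argonaute gene. LOC_Os04g53720, an SNF2 gene, had 31 fragments over 4.98 and a fold of 5.35, 128 bp upstream, and the weakest SNF2 gene, LOC_Os02g52510, had 14 over 6.14 and a fold of 2.10. The RNA-dependent RNA polymerase genes LOC_Os02g50330 and LOC_Os04g39160 had folds of 4.41 and 2.39, the Dicer genes LOC_Os03g02970 and LOC_Os04g43050 had 3.78 and 3.31, and the argonaute gene LOC_Os01g16870 had 3.65. Members of these families without a peak were not analysed here.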
